A study of Homo sapiens with 12 samples.

Results

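CCN1, CCN2, ANKRD1, AMOTL2, AXL, CRIM1, MYOF, PTPN14 and F3 are genes widely used as readouts of YAP, and CCN3 is a further member of the CCN family. They were followed through every probe set that carries their name, which gave 16 of the 22215 probe sets tested and 10 of 11963 genes. Of these, 5 genes had 1 probe set, 4 had 2 and MYOF had 3. RCC4, a cell line from a human clear cell renal carcinoma, was profiled on 12 arrays. Cells received an siRNA against YAP (siYAP) or a non-targeting siRNA (siNT) for 2 days, followed by 7 hours of either 1 µM erastin or DMSO alone. The groups were siYAP with DMSO, siNT with DMSO, siYAP with erastin and siNT with erastin, with 3 arrays each, labelled as biological triplicates. Whether a single siRNA sequence or a pool was used is not given in the sources used here. The siNT groups are tumour cells too, not normal kidney. Erastin blocks the cystine importer system xc- and can start ferroptosis, in which cells die of iron-driven lipid oxidation.

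YAP, encoded by YAP1, is a co-activator with no DNA-binding domain of its own. When the Hippo kinases are inactive it enters the nucleus and works through TEAD transcription factors, which recognise the motif GGAATG. CCN1 and CCN2 (also known as CYR61 and CTGF) encode secreted matricellular proteins and are among its best known direct targets, together with ANKRD1. AMOTL2 and PTPN14 encode proteins that bind YAP and hold it out of the nucleus, so they are negative feedback targets.

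Silencing was visible on every siYAP array. In log2 units, the siYAP arrays with DMSO read 4.18, 4.88 and 4.81 for YAP1, against 8.55, 8.59 and 8.47 in siNT with DMSO. With erastin it was 4.68, 6.21 and 4.90 on the siYAP arrays, against 8.47, 8.52 and 8.65 on the siNT arrays. The second siYAP array with erastin kept more YAP1 signal than the other 5 siYAP arrays. WWTR1, which encodes the YAP paralogue TAZ, passed as lower on 0 of its 3 probe sets in limma, and its 202134_s_at rose by 0.25 in DMSO (adjusted p = 0.0301) and by 0.37 with erastin (adjusted p = 0.00334). Arrays of a group correlated at 0.9956 to 0.9986. The 8 measured of 10 tumour and tubule markers had mean levels of 8.26 to 13.5. Endothelial, fibroblast and immune markers had medians of 4.64, 4.85 and 4.16, the highest being COL1A1 at 7.51. In bulk RNA, fewer cells that express a gene and less RNA per cell cannot be told apart.

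The promoter windows are shown first, because the members differ in how often the TEAD motif stands near their start. RefSeq windows (GRCh38.p14, 250 bases before to 50 after the start) were used for 7 of the 10 members, 9 windows in all, written on the strand of the gene. No window of CCN1, CCN3 or CRIM1 was used, and the selection of members' windows left out the chromosome that carries CCN3. GGAATG or its reverse complement CATTCC, on either strand, occurred in 14% of all 35116 windows, at least 2 times in 1.37% and at least 3 times in 0.128%. CCN2 held 3 matches, ANKRD1 held 2, and PTPN14 and a window each of AMOTL2 and AXL held 1. The other windows of AMOTL2 and AXL and those of MYOF and F3 held none. The CCN2 window (chr6:131951323-131951622, minus strand), the ANKRD1 window (chr10:90921038-90921337, minus strand) and the AMOTL2 window with a match (chr3:134374398-134374697, minus strand) are printed as those of members that rose (CCN2 and ANKRD1) and fell (AMOTL2) after silencing. CCN3 and CRIM1, which also rose, had no window here, and AXL, which also fell, is not printed. A link between the number of matches and the direction of change was not tested. Capitals mark the motif.
CCN2: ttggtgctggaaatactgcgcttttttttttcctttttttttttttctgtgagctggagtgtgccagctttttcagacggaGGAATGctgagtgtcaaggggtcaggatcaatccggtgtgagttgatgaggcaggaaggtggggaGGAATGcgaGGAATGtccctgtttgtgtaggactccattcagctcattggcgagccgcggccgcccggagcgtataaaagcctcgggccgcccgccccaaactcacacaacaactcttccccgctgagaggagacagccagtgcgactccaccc
ANKRD1: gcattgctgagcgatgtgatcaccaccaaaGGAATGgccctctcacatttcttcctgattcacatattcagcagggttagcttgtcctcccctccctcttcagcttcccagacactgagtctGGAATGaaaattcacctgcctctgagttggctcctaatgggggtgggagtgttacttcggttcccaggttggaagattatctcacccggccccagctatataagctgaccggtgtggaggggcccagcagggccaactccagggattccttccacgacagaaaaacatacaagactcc
AMOTL2: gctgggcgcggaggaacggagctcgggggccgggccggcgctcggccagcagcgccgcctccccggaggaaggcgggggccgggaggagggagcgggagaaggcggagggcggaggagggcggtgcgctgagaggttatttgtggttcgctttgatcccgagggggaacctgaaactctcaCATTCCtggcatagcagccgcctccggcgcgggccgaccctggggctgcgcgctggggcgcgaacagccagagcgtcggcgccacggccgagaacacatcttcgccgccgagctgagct

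In CCN2 the matches began 169, 104 and 95 bases before the start, all on the strand of the gene. In ANKRD1 they began 220 and 128 bases before it, and an AP-1 motif (TGANTCA, found in 7.71% of windows) lay between them, 195 bases before the start. F3 held 2 AP-1 matches, and 0.515% of windows held at least 2. AP-1 motifs are bound by FOS and JUN proteins. A letter match is a description of the sequence and does not show binding in these cells.

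**Figure D1:**
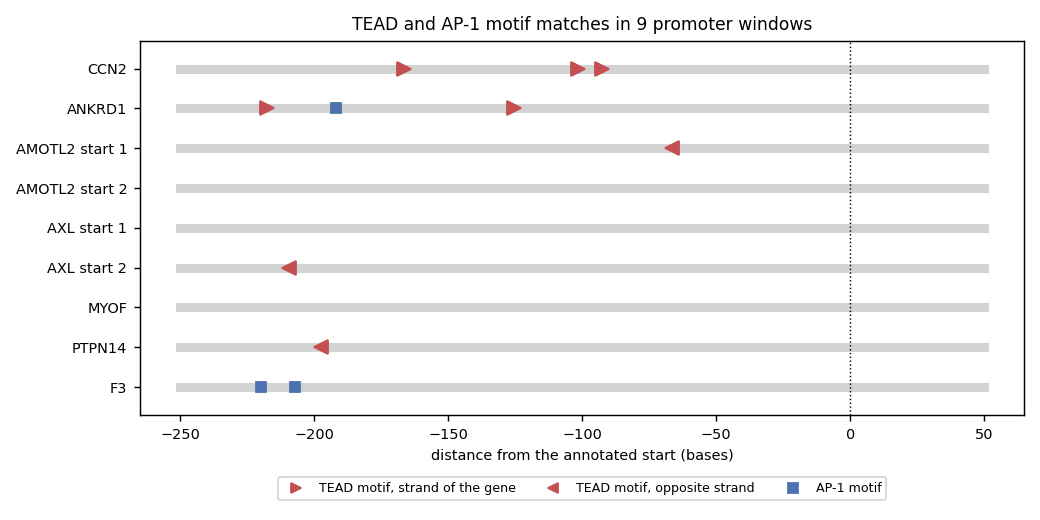
Motif matches in 9 RefSeq promoter windows of 7 genes, by distance from the annotated start in bases. Red triangles are TEAD motifs and point along the strand, with 3 in CCN2 and 2 in ANKRD1, and blue squares are AP-1 motifs, with 2 in F3 and 1 in ANKRD1.

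In DMSO, the members differed between siYAP and siNT cells in both directions. CCN3, CCN2, ANKRD1 and CRIM1 rose, AMOTL2 and AXL fell, and no probe set of CCN1, MYOF, PTPN14 or F3 passed the test. The rise of CCN3 was the largest of them, 4.52-fold on 214321_at and 2.95-fold on 204501_at. Of the 16 probe sets, 6 rose and 3 fell at an adjusted p under 0.05 in limma, where 14.4% of all probe sets rose and 12.9% fell (27.4% in all). The siYAP and siNT arrays did not overlap for 10 of the 16 probe sets, nor for 40.8% of all probe sets. Their median log2 fold change was 0.02, as was that of all probe sets, while the median size of change regardless of sign was 0.37 for the members' probe sets and 0.12 for all.

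With erastin present in both arms, the same comparison on 6 other arrays gave 5 probe sets that rose and 8 that fell, where 16% of all probe sets rose and 12.9% fell (28.9% in all). The arrays did not overlap for 14 of the 16 probe sets, nor for 40.1% of all probe sets. The median log2 fold change of the 16 probe sets was -0.15 here, against 0.001 for all probe sets. Regardless of sign, the median size of change was 0.34 for the 16 and 0.13 for all. The genes that rose were again CCN3, CCN2, ANKRD1 and CRIM1 (1 of its 2 probe sets). AMOTL2 and AXL fell again, and CCN1 (both probe sets), MYOF (2 of 3) and F3 passed as lower here. The number that fell rests partly on single arrays: 5 passed in place of 8 when siNT array 1 or 3 or siYAP array 2 or 3, all with erastin, was left out. Over both comparisons 5 probe sets rose in each, 3 fell in each and 0 went opposite ways. The corresponding shares of all probe sets were 11.2%, 9.46% and 0.027%. RNA quality was read from the ACTB controls as the 3' minus the 5' log2 level. It averaged 3.54 ± 0.18 (SD, n = 3) for siYAP arrays with erastin and 2.26 ± 0.69 for siNT arrays with erastin. In DMSO it averaged 2.59 ± 0.95 for siYAP arrays and 2.68 ± 0.28 for siNT arrays, and its part in the results with erastin was not tested.

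**Figure D2:**
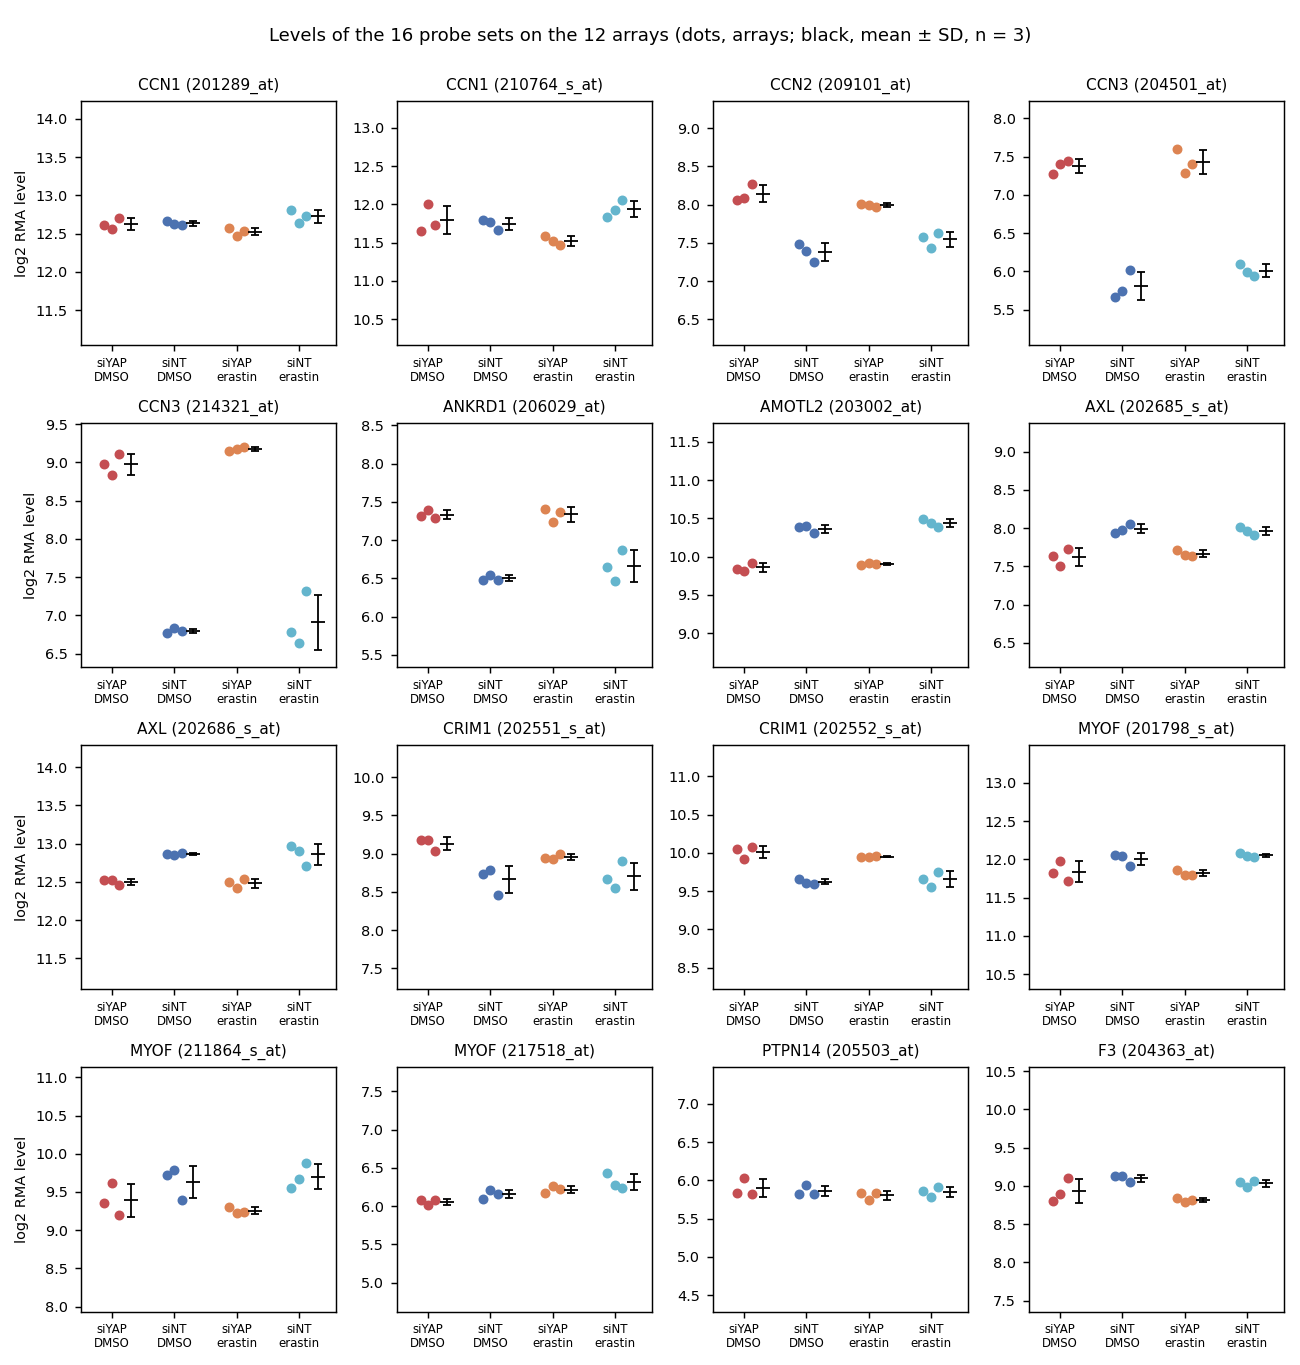
Log2 RMA level (vertical axes, each spanning the same range of log2 units) of the 16 probe sets in siYAP and siNT cells with DMSO and with erastin. Dots are arrays, and black bars are the mean ± SD of 3 arrays. All 6 siYAP arrays lie above all 6 siNT arrays for CCN2, CCN3, ANKRD1 and CRIM1 and below them for AMOTL2 and AXL.

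CCN3, formerly NOV, encodes a CCN protein that has been described as opposing CCN2. Its probe set 214321_at read 8.97, 8.83 and 9.11 in siYAP cells with DMSO, against 6.77, 6.83 and 6.79 in siNT cells with DMSO. With erastin it read 9.15, 9.17 and 9.21 in siYAP cells, against 6.78, 6.63 and 7.32 in siNT cells. The groups were far apart in both treatments, and the third siNT array with erastin stood above the other 5 siNT arrays. The log2 fold change was 2.18 (SE 0.14, adjusted p = 2.05e-07) in DMSO and 2.27 (SE 0.14, adjusted p = 1.77e-07) with erastin, ranks 5 and 3 from the top among all probe sets.

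The second CCN3 probe set, 204501_at, went the same way. It was 7.27, 7.41 and 7.44 in siYAP cells with DMSO, against 5.67, 5.74 and 6.01 in siNT cells with DMSO. With erastin it was 7.60, 7.29 and 7.41 in siYAP cells, against 6.10, 5.996 and 5.94 in siNT cells. Its change was 1.56 (SE 0.10, adjusted p = 2.27e-07) in DMSO and 1.42 (SE 0.10, adjusted p = 5.2e-07) with erastin. CCN3 accounted for the only members past a 2-fold change.

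CCN2 rose although it is a textbook YAP target. It measured 8.06, 8.09 and 8.27 in siYAP cells with DMSO, against 7.49, 7.39 and 7.25 in siNT cells with DMSO. With erastin it measured 8.02, 8.00 and 7.97 in siYAP cells, against 7.58, 7.43 and 7.62 in siNT cells. Neither pair of groups overlapped. The rise was 1.70-fold in DMSO (log2 0.76, SE 0.08, adjusted p = 1.05e-05) and 1.36-fold with erastin (log2 0.45, SE 0.08, adjusted p = 7.97e-04). In DMSO the change was larger in size than that of 95.7% of all probe sets, and with erastin than that of 87.9%.

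ANKRD1, which encodes an ankyrin repeat protein of muscle and endothelial cells, behaved like CCN2. Its levels were 7.31, 7.40 and 7.29 in siYAP cells with DMSO, against 6.48, 6.55 and 6.48 in siNT cells with DMSO. With erastin they were 7.41, 7.23 and 7.37 in siYAP cells, against 6.65, 6.46 and 6.87 in siNT cells. All siYAP arrays were above all siNT arrays, and the siNT cells with erastin were the most spread group. ANKRD1 rose 1.78-fold in DMSO (log2 0.83, SE 0.09, adjusted p = 1.76e-05) and 1.60-fold with erastin (log2 0.68, SE 0.09, adjusted p = 9.79e-05).

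CCN1 did not pass the test in DMSO. Probe set 201289_at read 12.62, 12.56 and 12.71 in siYAP cells with DMSO, against 12.67, 12.63 and 12.61 in siNT cells with DMSO. With erastin it read 12.57, 12.47 and 12.53 in siYAP cells, against 12.81, 12.63 and 12.73 in siNT cells. The DMSO groups overlapped and the erastin groups did not. The log2 difference in DMSO was -0.01 (adjusted p = 0.95), with a 95% interval of -0.15 to 0.13. With erastin it fell by 0.20 (SE 0.06, adjusted p = 0.0306), a call lost without siNT array 1 or 3 or siYAP array 2 or 3 with erastin and when the fit held just these 6 arrays.

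The other CCN1 probe set, 210764_s_at, was 11.65, 12.01 and 11.73 in siYAP cells with DMSO, against 11.80, 11.77 and 11.66 in siNT cells with DMSO. With erastin it was 11.59, 11.52 and 11.46 in siYAP cells, against 11.84, 11.92 and 12.05 in siNT cells. It did not pass in DMSO (0.05, adjusted p = 0.745) and fell by 0.42 with erastin (SE 0.09, adjusted p = 0.00351).

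The feedback genes AMOTL2 and PTPN14 differed. AMOTL2 stood at 9.84, 9.81 and 9.92 in siYAP cells with DMSO, against 10.39, 10.40 and 10.31 in siNT cells with DMSO. With erastin it stood at 9.89, 9.92 and 9.91 in siYAP cells, against 10.49, 10.44 and 10.39 in siNT cells. Every siYAP array was below every siNT array. AMOTL2 fell by 0.51 in DMSO (SE 0.06, adjusted p = 1.85e-05) and by 0.54 with erastin (SE 0.06, adjusted p = 1.17e-05), or 1.42-fold and 1.45-fold lower.

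PTPN14, a tyrosine phosphatase gene, read 5.84, 6.03 and 5.82 in siYAP cells with DMSO, against 5.82, 5.93 and 5.82 in siNT cells with DMSO. Its log2 difference was 0.04 in DMSO (95% interval -0.11 to 0.19, adjusted p = 0.754) and -0.05 with erastin (95% interval -0.20 to 0.11, adjusted p = 0.705). The groups overlapped in both treatments.

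**Figure D3:**
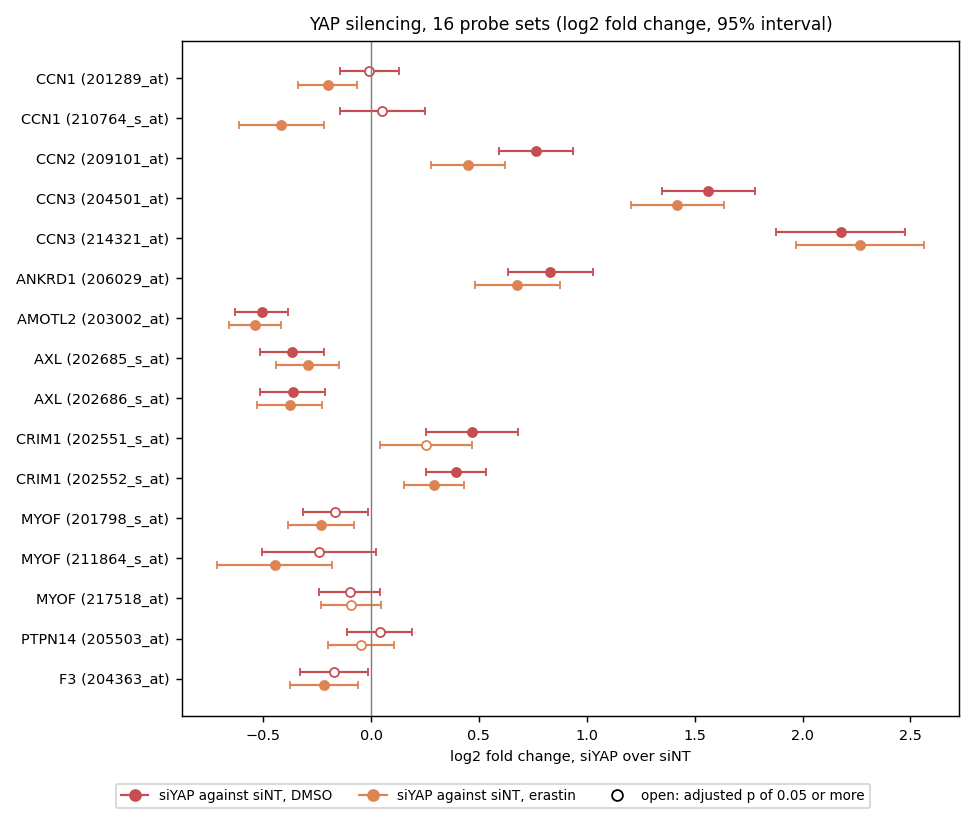
Log2 fold change of siYAP over siNT with its 95% interval for the 16 probe sets, in DMSO (red) and with erastin (orange). Filled points passed an adjusted p of 0.05. CCN3 reached 2.18 and 2.27 on 214321_at, and AMOTL2 lay at -0.51 and -0.54.

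Among the genes of the cell surface, AXL fell and CRIM1 rose. AXL encodes a receptor tyrosine kinase for GAS6. On 202686_s_at it was 12.52, 12.52 and 12.46 in siYAP cells with DMSO, against 12.87, 12.85 and 12.88 in siNT cells with DMSO, and 202685_s_at was 7.64, 7.50 and 7.73 against 7.94, 7.98 and 8.06 in the same groups. Both probe sets kept all siYAP arrays below all siNT arrays. The log2 changes were -0.36 and -0.37 in DMSO (adjusted p = 0.0015 and 0.0012) and -0.38 and -0.29 with erastin (adjusted p = 0.00108 and 0.00533), in the order given.

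CRIM1 encodes a transmembrane protein with cysteine-rich repeats that binds bone morphogenetic proteins. On 202552_s_at it was 10.05, 9.92 and 10.07 in siYAP cells with DMSO, against 9.66, 9.61 and 9.60 in siNT cells with DMSO. With erastin it was 9.95, 9.94 and 9.96 in siYAP cells, against 9.66, 9.56 and 9.76 in siNT cells. It rose by 0.39 in DMSO (SE 0.06, adjusted p = 4.46e-04) and by 0.29 with erastin (SE 0.06, adjusted p = 0.00368). On 202551_s_at CRIM1 rose by 0.47 in DMSO (adjusted p = 0.00292) and was 0.25 with erastin (adjusted p = 0.0752), and all 6 siYAP arrays of both probe sets were above all 6 siNT arrays. The change with erastin passed when siNT array 3 with DMSO or siNT array 3 with erastin was left out.

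F3 encodes tissue factor, which starts the clotting cascade. It was 8.80, 8.89 and 9.10 in siYAP cells with DMSO, against 9.12, 9.13 and 9.05 in siNT cells with DMSO. With erastin it was 8.84, 8.78 and 8.82 in siYAP cells, against 9.05, 8.98 and 9.06 in siNT cells. The third siYAP array with DMSO lay inside the siNT range, and the erastin groups did not overlap. The log2 difference was -0.17 in DMSO (adjusted p = 0.111), and F3 fell by 0.22 with erastin (SE 0.07, adjusted p = 0.0403). Leaving out siYAP array 3 with DMSO made the first a call (-0.26, adjusted p = 0.0108), and 7 of the 12 arrays ended the second when left out (adjusted p up to 0.117).

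MYOF encodes myoferlin, a ferlin that takes part in membrane repair. On 201798_s_at it was 11.82, 11.98 and 11.72 in siYAP cells with DMSO, against 12.06, 12.05 and 11.92 in siNT cells with DMSO. With erastin it was 11.86, 11.80 and 11.80 in siYAP cells, against 12.08, 12.04 and 12.03 in siNT cells. The siYAP cells with DMSO overlapped with their controls, mainly through array 2. Its difference was -0.17 in DMSO (adjusted p = 0.107), and it fell by 0.23 with erastin (SE 0.07, adjusted p = 0.025). Probe set 211864_s_at gave -0.24 (adjusted p = 0.186) and fell by 0.45 with erastin (adjusted p = 0.0152), and 217518_at gave -0.10 and -0.09 (adjusted p = 0.32 and 0.342). The erastin call on 201798_s_at was lost without siNT array 1 or siYAP array 2 or 3 with erastin, and that on 211864_s_at without siNT array 3 with erastin. In DMSO, 201798_s_at passed as lower without siYAP array 2 with DMSO, and 211864_s_at without siNT array 3 with DMSO.

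Ordered by group mean, 6 probe sets (CCN2, both of CCN3, ANKRD1 and both of CRIM1) had all 6 siYAP arrays above all 6 siNT arrays, as had 12.9% of all probe sets. AMOTL2 and both probe sets of AXL had them all below, as had 10.9%. Within the siYAP pair and the siNT pair of groups, neighbours in the order mostly overlapped. The exceptions were CCN2 and CRIM1 202551_s_at, in which siYAP with erastin was lower than siYAP with DMSO on every array, and CCN3 214321_at, in which it was higher on every array. CCN1, MYOF, PTPN14 and F3 had neighbouring groups that overlapped, apart from the lowest group of CCN1 210764_s_at (siYAP with erastin) and of MYOF 217518_at (siYAP with DMSO).

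Erastin for 7 hours changed none of the members past the test. In siYAP cells 0 of 16 probe sets passed, where 0.171% of all did, and in siNT cells 0 of 16, where 0.297% did. Arrays with and without erastin did not overlap for 5 of the 16 probe sets in siYAP cells and 2 in siNT cells, where 21% and 12.4% of all probe sets did not. At an unadjusted p under 0.05 in limma, 2 of the 16 probe sets in siYAP cells and 1 in siNT cells remained, against 9.91% and 8.76% of all probe sets. Log2 changes lay between -0.27 and 0.20 in siYAP cells and between -0.07 and 0.20 in siNT cells. Their 95% intervals reached from -0.47 to 0.50 in siYAP cells and from -0.23 to 0.42 in siNT cells.

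The test of whether the silencing effect differed between erastin and DMSO, which is the same as whether the erastin effect differed between siYAP and siNT cells, passed for 0 of the members' 16 probe sets and for 0% of all probe sets in limma. At an unadjusted p under 0.05, 2 of the 16 probe sets and 9.03% of all probe sets stood below the threshold. These were CCN1 210764_s_at, at -0.47 (SE 0.13, adjusted p = 0.467), and CCN2, at -0.31 (SE 0.11, adjusted p = 0.515). CCN1 210764_s_at was also the probe set of a member whose arrays all went down with erastin in siYAP cells and all up in siNT cells, as those of 1.08% of all probe sets went opposite ways. The larger number of members' probe sets that fell with erastin present is therefore not shown to be a different effect. For CCN3 214321_at the difference was 0.09 with a 95% interval of -0.33 to 0.51, and for AMOTL2 it was -0.03 with an interval of -0.20 to 0.14.

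**Figure D4:**
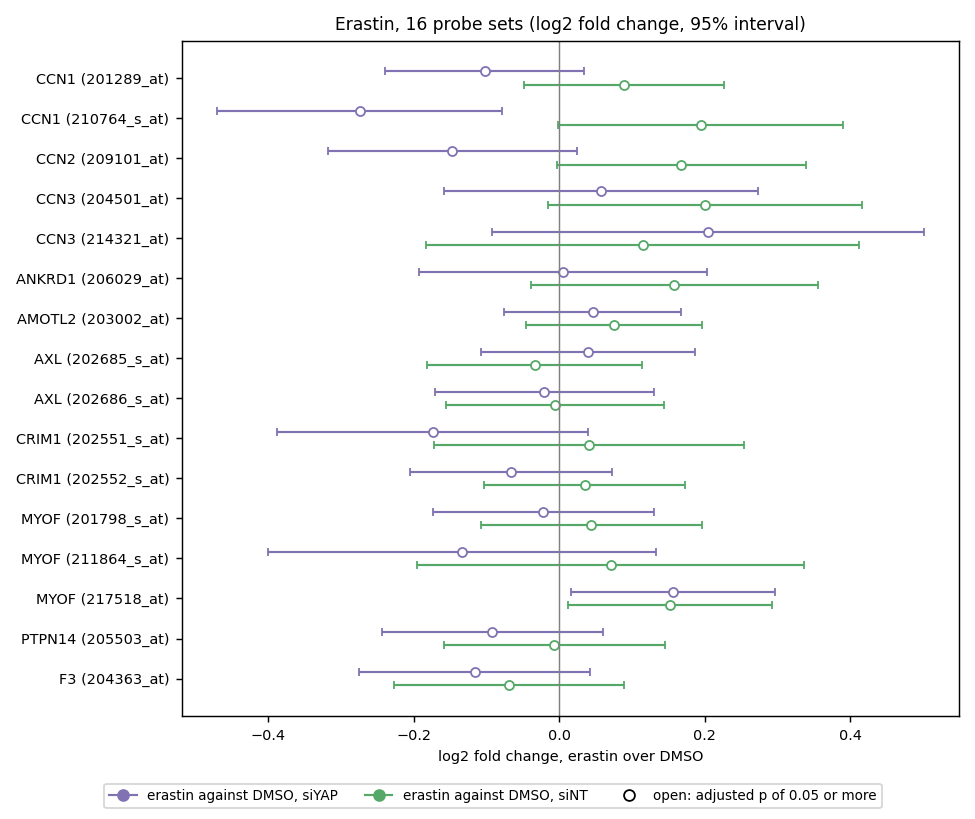
Log2 fold change of erastin over DMSO with its 95% interval for the 16 probe sets, in siYAP cells (purple) and siNT cells (green). All points are open because none passed an adjusted p of 0.05, and CCN1 210764_s_at lay at -0.27 in siYAP cells and 0.19 in siNT cells.

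Other genes of the pathway were described with 1 probe set per gene, the brightest, in a fit of all 11963 genes. After silencing, 18.1% of genes rose and 15.6% fell in DMSO (33.7% in all), and 20% rose and 14.8% fell with erastin (34.9% in all). Of the 13 remaining genes of a published YAP/TAZ target signature, which also holds the members other than CCN3, 10 were measured. GADD45A, a growth arrest gene, rose in DMSO (0.61, adjusted p = 4.33e-06) and with erastin (0.31, adjusted p = 0.00133). ARHGEF17 fell in both (-0.21, adjusted p = 0.0138, and -0.33, adjusted p = 6.29e-04), and the other 8 did not pass in either. The list's median was -0.01 in DMSO and -0.05 with erastin, against 0.02 and 0.01 over all genes. The count of 2 was 1 in DMSO without siNT array 2 with DMSO, and 4 in both comparisons without siNT array 3 with erastin.

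Of the other CCN genes, CCN5 rose by 0.38 in DMSO (adjusted p = 0.00198) and was 0.21 with erastin (adjusted p = 0.0553). It passed with erastin when siNT array 1 with erastin or siYAP array 1 or 3 with DMSO was left out. CCN4 and CCN6 did not pass in either, at mean levels of 4.28 and 2.71 in siYAP cells with DMSO.

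Among 9 measured of 12 other genes often cited as YAP/TAZ targets, 3 rose and 4 fell in DMSO, and 2 rose and 5 fell with erastin. Over all genes, 33.7% passed in either direction in DMSO and 34.9% with erastin. DLC1 fell by 1.37 in DMSO (adjusted p = 1.8e-07) and by 1.67 with erastin (adjusted p = 5.73e-08), more than any member fell. The integrin gene ITGB2 fell by 0.60 and 0.40 and the survivin gene BIRC5 by 0.47 and 0.43 in the same order. EDN1, which encodes endothelin-1, rose by 0.49 and 0.30. INHBA fell by 0.29 in DMSO and by 0.32 with erastin.

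Of the factors themselves, VGLL4, which competes with YAP for TEAD, rose by 0.80 in DMSO (adjusted p = 2.53e-07) and by 0.70 with erastin (adjusted p = 7.06e-07). TEAD1 was 0.32 in DMSO (adjusted p = 0.0795) and rose by 0.63 with erastin (adjusted p = 0.00194). TEAD3 fell by 0.27 in DMSO (adjusted p = 0.0127), and TEAD4 rose by 0.16 with erastin (adjusted p = 0.0257). Among 6 measured genes of this list, YAP1 included, 1 rose and 2 fell in DMSO and 3 rose and 1 fell with erastin. The shares of all genes that passed in either direction were 33.7% and 34.9%, in that order.

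CCN1, CCN2 and ANKRD1 also respond to other signals, above all to SRF with its co-activator MRTF and to TGF-beta through SMAD factors. Of 10 SRF and MRTF targets 2 rose and 5 fell in DMSO, and 3 rose and 5 fell with erastin. Calls in either direction covered 33.7% of all genes in DMSO and 34.9% with erastin. The smooth muscle actin gene ACTA2 rose by 0.42 in both and CNN1, calponin, by 0.38 in both. CNN2 fell by 0.57 in DMSO and 0.52 with erastin, and SRF itself by 0.42 in DMSO and 0.17 with erastin. MYL9, a myosin light chain gene, fell by 0.23 in DMSO (adjusted p = 0.0418) and rose by 0.23 with erastin (adjusted p = 0.0421). The difference between these MYL9 effects was 0.45 and did not pass the limma test (adjusted p = 0.354). The 7 calls in DMSO became 4 without siYAP array 1 with DMSO. The 8 calls with erastin became 5, 4 and 5 without siNT array 1, 2 or 3 and 5, 3 and 2 without siYAP array 1, 2 or 3, all with erastin.

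Of 7 measured TGF-beta and SMAD targets 0 rose in either comparison, 3 fell in DMSO and 2 with erastin. Of all genes, 33.7% passed in either direction in DMSO and 34.9% with erastin. ID1 fell by 0.64 and 0.72, PMEPA1 by 0.44 in DMSO, LTBP2 by 0.40 in DMSO and SKIL by 0.43 with erastin. The count with erastin was 1 when siNT array 1 with DMSO, siNT array 3 with erastin, any siYAP array with DMSO or siYAP array 2 or 3 with erastin was left out. With erastin as the compared factor, 0 genes of these lists passed in siYAP or siNT cells, where 0.334% and 0.752% of all genes did.

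**Figure D5:**
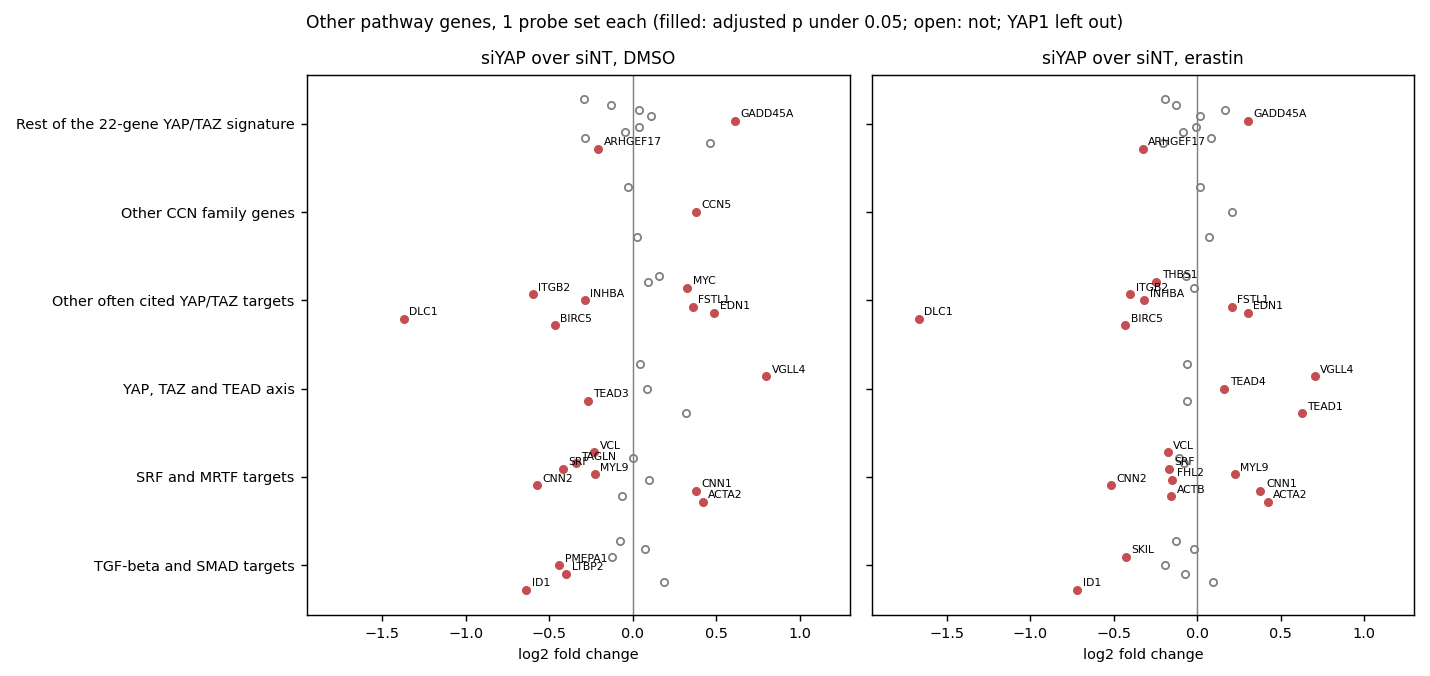
Log2 fold change of siYAP over siNT for the other pathway genes by list, in DMSO (left) and with erastin (right), with 1 probe set per gene and YAP1 left out. Filled red points passed an adjusted p of 0.05 and carry their gene name. DLC1 lay farthest to the left, at -1.37 and -1.67, and VGLL4 farthest to the right, at 0.80 and 0.70.

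The genes whose course over the 12 arrays was most like that of CCN3 were found by the root mean square difference of log2 values after each gene's own mean was subtracted. They were PTX3, a pentraxin gene (0.13 log2 units), the sodium channel gene SCN3A (0.21) and the interferon-induced gene IFI27 (0.24), where the median over all other genes was 1.13. For CCN2 they were SLCO4C1 (0.06), an organic anion transporter gene, HLA-E (0.06) and UFM1 (0.08), against a median of 0.34. For ANKRD1 they were RYBP (0.07), S100PBP (0.07) and SLC17A5 (0.08), against a median of 0.41. For CCN1, whose own SD over the arrays was 0.09, they were EEF2 (0.04), WASHC4 (0.04) and RAD21 (0.05), against a median of 0.16. The own SD over the arrays was 1.17 for CCN3, 0.34 for CCN2 and 0.41 for ANKRD1, close to their medians. For CCN3, CCN2 and ANKRD1 the median is therefore about the distance of a gene that stays flat. These likenesses are descriptions over arrays that fall into siYAP and siNT clusters, and they largely reflect a similar difference between siYAP and siNT.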

How the data were processed

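Total RNA of 12 RCC4 samples was measured on single-channel Affymetrix arrays. The authors deposited log2 values between 2.02 and 14.4. The submitters' processing notes name Expression Console (Affymetrix) together with RMA. RMA equalises the arrays, so a change of total RNA per cell is not seen, and it compresses dim signals. For software versions and scan dates: not given in the sources used here.

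Sample titles gave the groups and replicates. The titles also open with running numbers, which are lower for every siNT sample than for every siYAP sample. What these numbers record is not given in the sources used here. A difference that goes with them cannot be told apart from one between siYAP and siNT. Of 22277 probe sets 62 were array controls. A limma 3.58.1 model (R 4.3.3) held 1 mean for each group and used all 12 arrays and 22215 probe sets. Benjamini-Hochberg adjustment ran over all of them within each of 5 comparisons, with calls at an adjusted p under 0.05, and all adjusted p-values are limma's. Probe sets were named through the platform annotation and RefSeq gene identifiers, and 0 symbols changed. Pathway lists used the probe set with the highest mean per gene in a fit of 11963 genes. The labels call the replicates biological triplicates without saying whether cultures were separate, and the p-values reflect no more than the spread among them.

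Members and lists were chosen with earlier results of these data known. Named were every member, YAP1 and WWTR1, up to 4 called genes with the largest change per list and comparison, and the 3 genes most like CCN1, CCN2, CCN3 and ANKRD1. CCN4 and CCN6, the marker genes and the other members of short counts were named beside them. Alternatives covered the arrays in the fit, normalization, filtering, gene-level summaries, the variance model and leaving out each array.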

Additional observations from a re-analysis of the deposited data

Results flagged for a closer look

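CCN1 210764_s_at was the member whose arrays moved in opposite ways with erastin: every siYAP array with erastin (11.59, 11.52 and 11.46) lay below every siYAP array with DMSO (11.65, 12.01 and 11.73), and every siNT array with erastin (11.84, 11.92 and 12.05) lay above every siNT array with DMSO (11.80, 11.77 and 11.66). Among all probe sets 1.08% did the like in either sense. The difference between both erastin effects was -0.47 and did not pass the limma test (adjusted p = 0.467). The second CCN1 probe set gave -0.19 (adjusted p = 0.556), with overlapping arrays.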

How the results depend on the processing

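No member's call turned its direction under any alternative. The counts of members' probe sets that rose and fell after silencing were the same with median centring, quantile normalization and removal of the dimmest 30%. Leaving out an array in turn gave 6 to 6 higher and 3 to 4 lower in DMSO, and 5 to 6 higher and 5 to 8 lower with erastin. At gene level 5 genes fell with erastin, since there are fewer features. Array weights gave 5 lower in DMSO. A 2-fold minimum and the zero transformation of the series' design text (all 3 arrays more than 1 log2 unit from the other group's mean) each left 2 higher and 0 lower in both comparisons, the CCN3 probe sets, by their own construction. Calls over all features were 495 and 495 with the 2-fold minimum, 388 and 341 with the zero transformation, 4030 and 4173 at gene level with the brightest probe set, and 3896 and 3986 with the mean of probe sets, for silencing in DMSO and with erastin.

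For erastin the counts were small (38 in siYAP and 66 in siNT cells). They were 88 and 170 with a trended robust variance, 70 and 186 with array weights, 10 and 5 with the 2-fold minimum and 10 and 4 with the zero transformation. In siNT cells they were 10 with only the 6 arrays compared, 33 with the replicate block and 124 without the dimmest 30%. Leaving out an array gave 19 to 49 and 34 to 50. The interaction gave 7 with the trended variance, 3 with array weights and 0 to 1 without an array, and 0 of the members' probe sets in each. For the published signature, the mean of probe sets gave 4 calls in DMSO, and leaving out an array 1 to 4 in DMSO and 2 to 4 with erastin. The causes were not tested.

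Replicate numbers were not treated as pairs, and the labels do not say whether they pair the samples. Deviations of same-numbered arrays from their group means correlated at -0.13, 0.05 and 0.14 for silencing in DMSO, and at 0.01, -0.02 and 0.17 with erastin. In both silencing comparisons only siYAP array 3 was most like the siNT array of its own number. For erastin against DMSO these correlations ran from -0.42 to -0.01. With the replicate block the members' silencing calls stayed the same except that of F3 with erastin. The number of arrays, 3 per group, limits the precision, and signal over background was not tested.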
